A study of Mus musculus with 6 samples.

Results

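The genes described here are 32 enzymes, regulators and carriers of sterol and fatty acid synthesis, named by symbol, and all 32 were found among the 53819 symbols of the count table. They fall into a sterol branch of 18 enzymes, a fatty acid branch of 9 enzymes, and 5 genes that control sterol synthesis or carry sterol. They were measured in gastruloids, aggregates of mouse embryonic stem cells of the line E14 that break symmetry and form a posterior pole when left to develop. There were 3 libraries of aggregates kept for 80 h with budesonide, a synthetic glucocorticoid, and 3 libraries of untreated aggregates of the same line. The labels are silent on the dose, on any vehicle given to the untreated aggregates and on their time of collection. They do not tell separate cultures from repeats of one culture, so the p-values rest on a spread between samples that may be technical.

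Cells make cholesterol from acetyl-CoA by the mevalonate pathway, which ends in farnesyl diphosphate, and by a second set of steps that joins this unit to squalene, closes it into lanosterol and trims lanosterol to cholesterol. The transcription factor SREBP-2, encoded by Srebf2, switches on nearly all of these genes when membrane sterol is low: SCAP carries it from the endoplasmic reticulum to the Golgi for cleavage, and the INSIG proteins hold SCAP back when sterol is plentiful. Fatty acids are made from cytosolic acetyl-CoA by acetyl-CoA carboxylase and fatty acid synthase, then lengthened by ELOVL elongases and desaturated by FADS and SCD enzymes. The liver X receptors, which sense oxysterols, and SREBP-1, a factor related to SREBP-2, also control several of the fatty acid genes.

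With budesonide, 14 of the 32 genes rose, 2 fell and 16 passed in neither direction (edgeR's quasi-likelihood test with the Benjamini-Hochberg adjusted p under 0.05 over all genes tested). All 32 passed the filter on low counts. In the same test 28.7% of all 17155 genes were called, 15.2% as higher and 13.5% as lower, so the 16 of 32 called here stand in a contrast in which many genes changed. Every budesonide library lay above or below every untreated one for 22 of the 32, 15 of them higher, beside 39.6% of all genes tested. Without scaling factors 13 of the 32 were called, of which 9 were among the 16 and the other 4 (Idi1, Tm7sf2, Hsd17b7 and Sc5d) were lower, and the share of higher genes among all calls was 38.6% in place of 52.9%. Without untreated replicate 2, 9 of the 16 calls held. The changes were small: the median fold of the 16 called members was 1.26, beside 1.45 for all 4917 called genes, and 1 member, the fatty acid desaturase Fads1, changed by more than 1.5-fold. The median log2 fold change (budesonide over untreated throughout) was 0.063 in the sterol branch and 0.20 in the fatty acid branch, beside -0.017 over all genes tested, and without scaling factors the sterol median was -0.016. The sign of the sterol median rested on 1 library: it was -0.0099 without untreated replicate 2, against 0.12 without untreated replicate 1 and 0.10 without budesonide replicate 2, and it was 0.010 with upper quartile factors. In these bulk libraries fewer cells of a type and less RNA per cell cannot be told apart.

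The members differed widely in how well they could be measured. Libraries held from 5666168 to 7476862 counted reads. Of the 17 members with a mean of at least 30 CPM (counts scaled to a common library size, here by TMM), 12 rose and 2 fell, and of the 15 below it 2 rose and 0 fell. The median standard error of the log2 fold change was 0.0739 in the better measured set and 0.142 in the other. Over all genes tested, 46.7% of those at or above 30 CPM and 20.3% of those below it were called. The median log2 fold change was 0.23 in the better measured set and -0.070 in the other, and the part of depth in the fewer calls was not tested.

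The cell states in the aggregates moved with the treatment, in the same libraries as the changes described here. Summed over 8 naive pluripotency markers, of which all 8 rose, the level was 1206.9 to 1321.7 CPM in budesonide and 533.0 to 593.1 CPM in untreated libraries. Summed over 8 streak and tailbud markers, of which 6 were tested and all 6 fell, it was 10.7 to 15.4 CPM in budesonide and 276.7 to 302.4 CPM in untreated libraries. Of 8 endoderm markers 5 were tested and 1, Foxa2, fell, with sums of 8.46 to 13.5 CPM in budesonide and 19.8 to 27.6 CPM in untreated libraries; of 4 neural markers 2 were tested and both rose, with sums of 27.4 to 33.7 CPM in budesonide and 16.5 to 18.4 CPM in untreated libraries. The part of these shifts in the changes of the 32 genes was not tested. The 5 markers of adipocytes and hepatocytes, cells rich in lipid synthesis, summed to 2.39 to 3.83 CPM in budesonide and 2.74 to 4.08 CPM in untreated libraries, and none had enough reads to be tested.

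**Figure D1:**
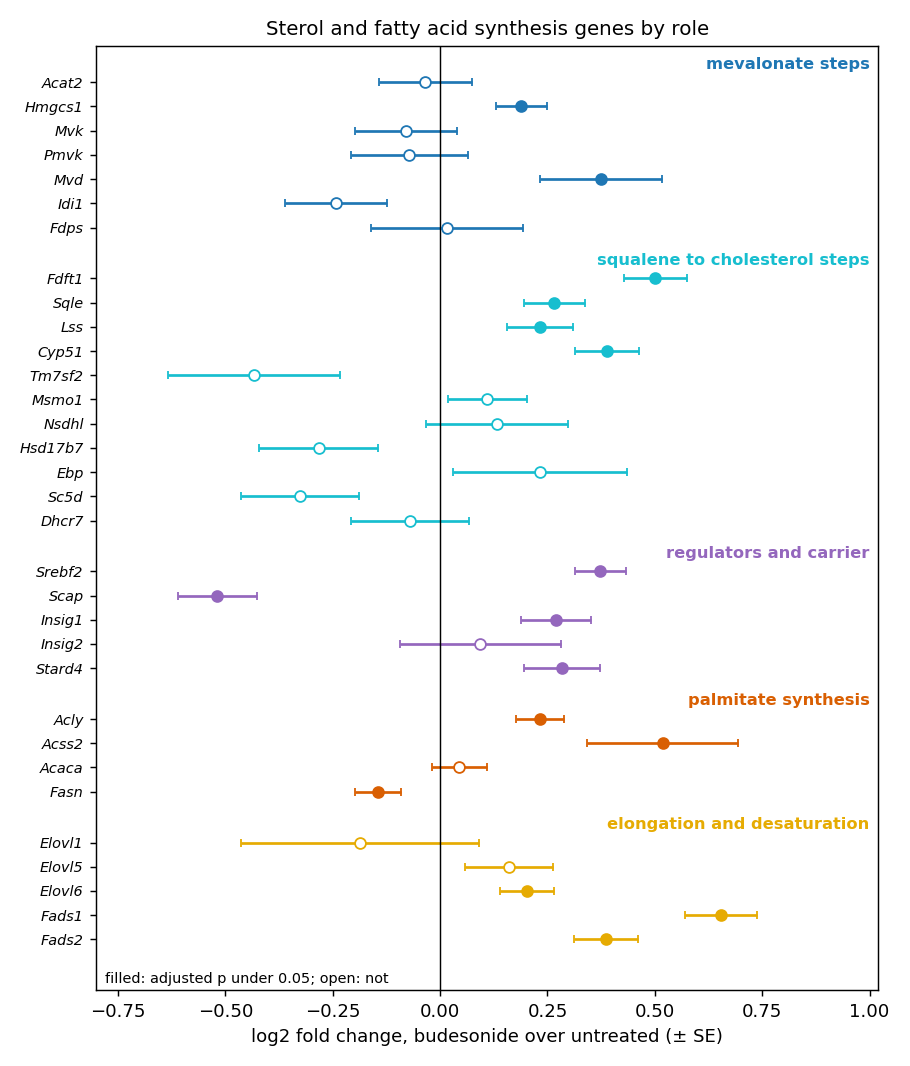
Log2 fold change, budesonide over untreated, of each of the 32 genes with its standard error, grouped by role; filled points passed the test at an adjusted p under 0.05 and open points did not. Filled points lie to the right of 0 except Scap and Fasn.

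Promoters from RefSeq (build GRCm38.p6; 250 bases before to 50 after the transcription start) were at hand for 27 of the 32 genes. They were searched on both strands for TCACNCCAC, the core of a sterol regulatory element; CCAAT, bound by NF-Y, a usual partner of SREBP; GGGCGG, bound by Sp1; and CACGTG, an E-box. None of the 4 motifs contains another, and a gene with several listed starts was counted if any of them held the letters. CCAAT stood in 22 of the 27 promoters (81.5%), against 41.1% of all 27025 genes in the table and 43.1% of the 12021 of them that were tested. By response, 9 of 12 called members held it, and 13 of 15 members that were not called. GGGCGG stood in 22 of 27 (64.3% of tested genes, 38.2% of all), CACGTG in 6 of 27 (11.2% of tested genes, 8.09% of all) and TCACNCCAC in 1 of 27, Hmgcs1 (1.46% of tested genes, 1.44% of all). These matches are descriptions of letters and not of bound sites. Only exact matches were counted, so a promoter without one may still hold a variant of the motif.

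Of the promoters, 5 are shown because the members they belong to carry the results below: Hmgcs1, the one promoter with TCACNCCAC; Cyp51, Srebf2 and Fads2, which rose; and Scap, which fell. Capitals mark the motifs searched, as found on either strand.
Hmgcs1 promoter, chr13:119690101-119690400 (+ strand): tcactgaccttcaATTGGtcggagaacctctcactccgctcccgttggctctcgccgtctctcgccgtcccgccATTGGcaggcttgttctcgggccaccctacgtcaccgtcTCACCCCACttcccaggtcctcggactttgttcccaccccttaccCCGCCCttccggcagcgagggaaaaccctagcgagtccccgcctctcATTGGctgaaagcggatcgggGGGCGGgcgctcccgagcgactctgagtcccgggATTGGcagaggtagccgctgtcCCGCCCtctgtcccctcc
Cyp51 promoter, chr5:4104648-4104947 (- strand): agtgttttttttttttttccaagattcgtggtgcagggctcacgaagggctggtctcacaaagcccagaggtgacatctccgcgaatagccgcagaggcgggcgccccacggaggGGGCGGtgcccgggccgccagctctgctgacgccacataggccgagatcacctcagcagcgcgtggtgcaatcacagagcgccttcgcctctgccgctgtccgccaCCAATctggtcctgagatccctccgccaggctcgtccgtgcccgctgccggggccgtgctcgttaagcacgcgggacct
Srebf2 promoter, chr15:82147019-82147318 (+ strand): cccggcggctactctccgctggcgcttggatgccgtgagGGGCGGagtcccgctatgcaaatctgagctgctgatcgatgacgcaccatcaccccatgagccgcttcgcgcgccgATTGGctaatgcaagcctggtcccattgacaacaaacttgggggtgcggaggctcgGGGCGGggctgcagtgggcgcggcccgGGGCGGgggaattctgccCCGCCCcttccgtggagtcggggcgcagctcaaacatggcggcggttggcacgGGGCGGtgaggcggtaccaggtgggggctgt
Fads2 promoter, chr19:10101454-10101753 (- strand): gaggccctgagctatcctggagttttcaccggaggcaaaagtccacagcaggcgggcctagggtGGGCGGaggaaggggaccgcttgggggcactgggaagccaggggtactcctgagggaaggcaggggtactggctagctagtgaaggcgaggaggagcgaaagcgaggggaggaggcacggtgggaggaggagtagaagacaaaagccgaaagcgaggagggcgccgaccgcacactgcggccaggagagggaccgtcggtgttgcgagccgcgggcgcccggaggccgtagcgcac
Scap promoter, chr9:110333038-110333337 (+ strand): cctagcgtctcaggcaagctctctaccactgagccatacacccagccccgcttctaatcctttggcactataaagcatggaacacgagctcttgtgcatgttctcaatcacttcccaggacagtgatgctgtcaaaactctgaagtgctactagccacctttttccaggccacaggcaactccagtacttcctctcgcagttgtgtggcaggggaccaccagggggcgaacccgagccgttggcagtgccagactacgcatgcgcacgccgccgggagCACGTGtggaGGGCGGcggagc
Hmgcs1 held the sterol element core together with CCAAT and GGGCGG, Cyp51 and Srebf2 held CCAAT and GGGCGG, and Fads2 held GGGCGG alone. Scap, of which the first of 2 listed starts is shown, held CACGTG and GGGCGG just after the start.

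Among the 7 enzymes from acetyl-CoA to farnesyl diphosphate, 2 rose and 0 fell in edgeR. That is 28.6% called, close to the 28.7% of all genes tested. Over all 18 sterol enzymes 6 rose and 0 fell, or 33.3% called, also near that share. For the 7 enzymes an unadjusted edgeR p under 0.05 gave 2 higher and 1 lower, and DESeq2 called 1 higher and 0 lower. Hmgcs1, the HMG-CoA synthase that commits acetyl-CoA to the pathway, had 200.9, 212.4 and 196.9 CPM in the budesonide libraries, against 177.7, 174.6 and 183.0 CPM in the untreated libraries. Every budesonide library lay above every untreated one, and Hmgcs1 rose 1.14-fold (log2 fold change 0.19 ± 0.060, SE; edgeR adjusted p = 0.0123). Per kilobase of transcript it was the most abundant of the 18 sterol enzymes in both groups, at 58.7 CPM per kb with budesonide and 51.5 CPM per kb without. Mvd, the decarboxylase that makes isopentenyl diphosphate, had 18.5, 15.7 and 17.1 CPM in the budesonide libraries, against 13.1, 11.8 and 14.8 CPM in the untreated libraries. Its groups did not overlap either, and it rose 1.30-fold (log2 fold change 0.37 ± 0.14, SE; edgeR adjusted p = 0.0414).

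The other 5 mevalonate enzymes did not pass. Idi1, the isomerase that interconverts isopentenyl and dimethylallyl diphosphate, averaged 20.9 ± 2.23 CPM in budesonide and 24.7 ± 1.004 CPM in untreated libraries (SD, n = 3 each), with a log2 fold change of -0.24 ± 0.12 (SE; edgeR adjusted p = 0.126; 0.0320 with no scaling factors). The thiolase Acat2, the kinases Mvk and Pmvk and the farnesyl diphosphate synthase Fdps had log2 fold changes of -0.035, -0.080, -0.071 and 0.016. Acat2 has a close copy, Acat3, and Idi1 has pseudogenes in the table, so their reads may be shared in part. The call for Hmgcs1 was lost in 4 of 14 alternatives, with an adjusted p (edgeR unless named) of 0.0610 with upper quartile factors, 0.140 with no scaling factors, 0.116 with no filter on low counts and 0.0820 without untreated replicate 2. The call for Mvd was lost in 9 of 14 alternatives, with an adjusted p (edgeR unless named) of 0.162 in DESeq2, 0.0818 with upper quartile factors, 0.111 with no scaling factors, 0.139 with no filter on low counts, 0.0710 in limma, 0.184 without budesonide replicate 1, 0.0712 without budesonide replicate 3, 0.0710 without untreated replicate 1 and 0.199 without untreated replicate 2.

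From farnesyl diphosphate to cholesterol, the calls fell on the early steps. The first 4 enzymes in order, Fdft1, Sqle, Lss and Cyp51, all rose, and the 7 that act after Cyp51 did not pass the test, with log2 fold changes of both signs. Over the 11 enzymes 4 rose and 0 fell in edgeR, or 36.4% called, beside 28.7% of all genes tested. An unadjusted edgeR p under 0.05 gave 4 higher and 3 lower, and DESeq2 called 3 higher and 0 lower. These also differ in level: all 4 that rose averaged over 30 CPM, and of the 7 that did not, Msmo1 alone did.

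Fdft1, squalene synthase, was the sterol enzyme with the largest rise. It had 94.96, 95.9 and 97.3 CPM in the budesonide libraries, against 63.3, 75.1 and 64.9 CPM in the untreated libraries, with every budesonide library above every untreated one. That is 1.42-fold (log2 fold change 0.50 ± 0.074, SE; edgeR adjusted p = 3.79e-07). Of its annotated exons 18.3% of bases overlap the exons of Ctsb, a lysosomal protease gene on the opposite strand, and Ctsb itself rose (log2 fold change 0.63 ± 0.11, SE). How the counting treated strand is not given in the sources used here, and the part of shared reads in the rise of Fdft1 was not tested. Cyp51, the lanosterol demethylase, had 79.2, 82.4 and 73.7 CPM in the budesonide libraries, against 59.9, 59.9 and 60.3 CPM in the untreated libraries. The 3 untreated values lay within 1 CPM of each other and below all budesonide values, and Cyp51 rose 1.31-fold (log2 fold change 0.39 ± 0.075, SE; edgeR adjusted p = 5.37e-05). Its exons overlap those of Akap9 on the opposite strand over 3.76% of their bases, and Akap9 fell (log2 fold change -0.22 ± 0.053, SE).

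Sqle, the squalene monooxygenase that is a rate-controlling step of the pathway, had 98.1, 98.6 and 105.7 CPM in the budesonide libraries, against 90.5, 77.5 and 83.3 CPM in the untreated libraries. The groups did not overlap, and Sqle rose 1.202-fold (log2 fold change 0.27 ± 0.071, SE; edgeR adjusted p = 0.00308), though not without untreated replicate 2 (edgeR adjusted p = 0.0562). Lss, lanosterol synthase, had 77.3, 72.4 and 67.1 CPM in the budesonide libraries, against 60.7, 60.6 and 63.8 CPM in the untreated libraries. It too was higher in every budesonide library and rose 1.18-fold (log2 fold change 0.23 ± 0.077, SE; edgeR adjusted p = 0.0172). The call for Lss was lost in 7 of 14 alternatives, with an adjusted p (edgeR unless named) of 0.0612 in DESeq2, 0.0621 with upper quartile factors, 0.116 with no scaling factors, 0.109 with no filter on low counts, 0.0507 in limma, 0.145 without budesonide replicate 1 and 0.0716 without untreated replicate 2.

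After Cyp51, the methylsterol monooxygenase Msmo1 averaged 40.7 ± 0.44 CPM in budesonide and 37.7 ± 1.26 CPM in untreated libraries (SD, n = 3 each), a log2 fold change of 0.11 ± 0.092 (SE; edgeR adjusted p = 0.418). The sterol reductase Tm7sf2, the sterol ketone reductase Hsd17b7 and the sterol desaturase Sc5d had log2 fold changes of -0.43 ± 0.20, -0.28 ± 0.14 and -0.33 ± 0.14 (SE), with edgeR adjusted p = 0.104, 0.129 and 0.0717. Tm7sf2 shares 12.1% of its exonic bases with Vps51 on the same strand, whose log2 fold change was 0.10 ± 0.15 (SE). In all 3 of these genes every budesonide library lay below every untreated one, as it did for 19.8% of all genes tested. Sc5d had 14.8, 16.8 and 12.1 CPM in the budesonide libraries, against 19.1, 18.6 and 17.6 CPM in the untreated libraries. Sc5d passed as lower in 3 of 14 alternatives, with an edgeR adjusted p of 0.0340 with upper quartile factors, 0.0228 with no scaling factors and 0.0366 without budesonide replicate 2, and Tm7sf2 and Hsd17b7 did with no scaling factors (0.0486 and 0.0415). The sterol dehydrogenase Nsdhl, the sterol isomerase Ebp and Dhcr7, which makes cholesterol in the last step of one route, had log2 fold changes of 0.13 ± 0.17, 0.23 ± 0.20 and -0.070 ± 0.14 (SE), and Ebp passed as higher without untreated replicate 1 (edgeR adjusted p = 0.0412).

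Summed over the 18 sterol enzymes, the level was 788.5, 783.9 and 766.1 CPM in the budesonide libraries, against 693.4, 678.6 and 690.5 CPM in the untreated libraries. The lowest budesonide sum was above the highest untreated sum, and the means stood in a ratio of 1.13. Hmgcs1 gave 26.1% of this sum with budesonide and 26.0% without, and Fdft1 12.3% with budesonide and 9.86% without, so the sum follows a few abundant genes.

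**Figure D2:**
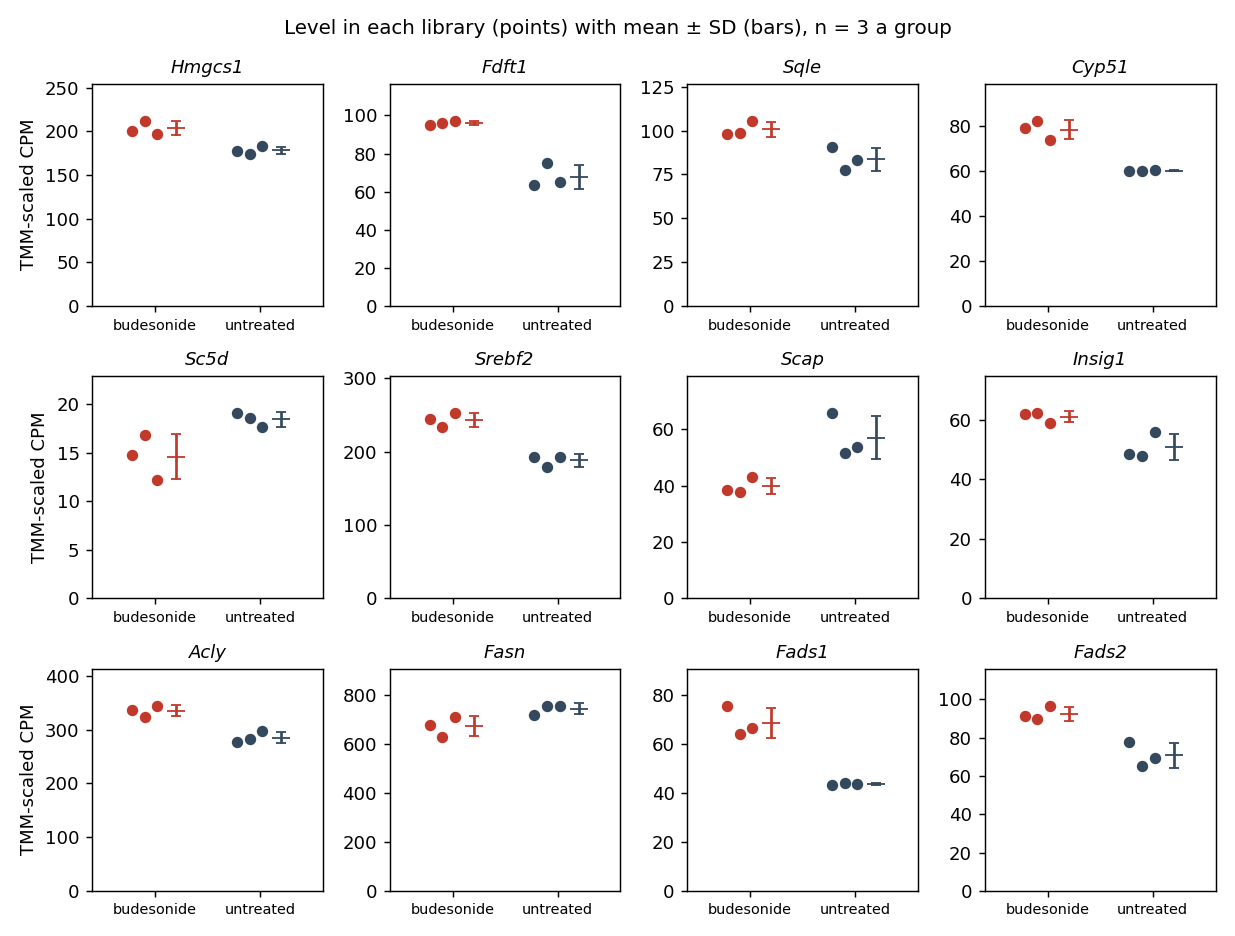
TMM-scaled CPM in each library for 12 of the genes, with budesonide libraries to the left of untreated libraries, points for the 3 libraries of a group and bars for the mean ± SD; every axis starts at 0. All 12 genes shown belong to the 22 of 32 members whose groups did not overlap, beside 39.6% of all genes tested, so the panels do not represent all members. Sc5d, Scap and Fasn are lower with budesonide.

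Srebf2 and Scap, which work together, moved in opposite directions. Srebf2, the SREBP-2 gene, had 244.3, 233.5 and 252.4 CPM in the budesonide libraries, against 192.2, 178.4 and 193.2 CPM in the untreated libraries. It was higher in every budesonide library and rose 1.29-fold (log2 fold change 0.37 ± 0.059, SE; edgeR adjusted p = 2.00e-06). Scap, the SREBP escort protein, had 38.6, 37.8 and 43.2 CPM in the budesonide libraries, against 65.7, 51.5 and 53.7 CPM in the untreated libraries. Every budesonide library lay below every untreated one, and Scap fell 1.43-fold (log2 fold change -0.52 ± 0.093, SE; edgeR adjusted p = 1.61e-05). Both calls held in all 14 alternatives run.

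Insig1, which retains SCAP and is itself a target of SREBP-2, had 62.1, 62.2 and 58.8 CPM in the budesonide libraries, against 48.6, 47.9 and 55.8 CPM in the untreated libraries. The groups did not overlap, and it rose 1.21-fold (log2 fold change 0.27 ± 0.082, SE; edgeR adjusted p = 0.00984). The call for Insig1 was lost in 3 of 14 alternatives, with an adjusted p (edgeR unless named) of 0.0673 with no scaling factors, 0.0538 with no filter on low counts and 0.0764 without untreated replicate 2. Its paralog Insig2 had 7.61, 9.86 and 7.91 CPM in the budesonide libraries, against 7.62, 7.45 and 8.80 CPM in the untreated libraries, with overlapping groups and a log2 fold change of 0.094 ± 0.19 (SE; edgeR adjusted p = 0.765). Per kilobase of transcript, Insig1 stood at 22.6 CPM per kb with budesonide and 18.8 CPM per kb without, and Insig2 at 3.14 CPM per kb with budesonide and 2.95 CPM per kb without. Stard4, a soluble carrier that moves cholesterol between membranes, had 55.1, 55.5 and 46.1 CPM in the budesonide libraries, against 43.4, 42.5 and 43.4 CPM in the untreated libraries. It was higher in every budesonide library and rose 1.22-fold (log2 fold change 0.28 ± 0.088, SE; edgeR adjusted p = 0.0110). The call for Stard4 was lost in 3 of 14 alternatives, with an adjusted p (edgeR unless named) of 0.0505 in DESeq2, 0.0695 with no scaling factors and 0.0743 without budesonide replicate 1.

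In the fatty acid branch 5 of 9 enzymes rose and 1 fell, or 66.7% called, beside 28.7% of all genes tested. All but Acss2 and Elovl1 averaged over 30 CPM, a level at which 46.7% of all genes tested were called. The genes that supply acetyl-CoA rose, and those that build palmitate from it did not. Acly, the ATP citrate lyase that makes cytosolic acetyl-CoA, had 337.3, 324.2 and 344.9 CPM in the budesonide libraries, against 276.8, 281.9 and 297.6 CPM in the untreated libraries. Every budesonide library was above every untreated one, and Acly rose 1.18-fold (log2 fold change 0.23 ± 0.056, SE; edgeR adjusted p = 0.00109). Acss2, which makes acetyl-CoA from acetate, had 13.0, 15.01 and 11.4 CPM in the budesonide libraries, against 10.5, 6.33 and 10.998 CPM in the untreated libraries, without overlap, and untreated replicate 2 was the lowest of all. It rose 1.43-fold (log2 fold change 0.52 ± 0.18, SE; edgeR adjusted p = 0.0220). The call for Acss2 was lost in 4 of 14 alternatives, with an adjusted p (edgeR unless named) of 0.126 in DESeq2, 0.0585 with no scaling factors, 0.110 without budesonide replicate 2 and 0.270 without untreated replicate 2. Its exons overlap those of Gss on the opposite strand over 3.89% of their bases, and Gss rose (log2 fold change 0.56 ± 0.10, SE), and the part of shared reads was not tested.

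Acaca, the acetyl-CoA carboxylase of the cytosol and the committed step, had 126.9, 125.1 and 124.3 CPM in the budesonide libraries, against 114.6, 125.8 and 124.3 CPM in the untreated libraries. The groups overlapped, and the log2 fold change was 0.045 ± 0.064 (SE; edgeR adjusted p = 0.661). Fasn, fatty acid synthase, had 680.2, 630.7 and 710.2 CPM in the budesonide libraries, against 718.0, 757.3 and 757.1 CPM in the untreated libraries. All 3 budesonide values were the lower ones, and Fasn fell 1.105-fold (log2 fold change -0.14 ± 0.054, SE; edgeR adjusted p = 0.0401). The call for Fasn was lost in 8 of 14 alternatives, with an adjusted p (edgeR unless named) of 0.190 in DESeq2, 0.0540 with RLE size factors, 0.0768 with a filter at 1 CPM, 0.122 in limma, 0.109 without budesonide replicate 1, 0.257 without budesonide replicate 2, 0.200 without untreated replicate 2 and 0.185 without untreated replicate 3. Fasn took 44.4% of the summed CPM of the branch with budesonide and 51.0% without. The branch sums were 1547.4, 1453.8 and 1550.2 CPM in the budesonide libraries, against 1427.6, 1459.9 and 1486.6 CPM in the untreated libraries, and overlapped.

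Both desaturases rose. Fads1, the front-end desaturase that makes arachidonic acid, had 75.8, 64.0 and 66.6 CPM in the budesonide libraries, against 43.4, 44.0 and 43.8 CPM in the untreated libraries. The untreated values lay within 1 CPM of each other, all budesonide values were higher, and Fads1 rose 1.57-fold, the largest change of the 32 genes (log2 fold change 0.65 ± 0.083, SE; edgeR adjusted p = 1.40e-08). Fads2, the desaturase that acts before it, had 91.4, 89.6 and 96.7 CPM in the budesonide libraries, against 77.7, 65.1 and 69.6 CPM in the untreated libraries. It was higher in every budesonide library and rose 1.31-fold (log2 fold change 0.39 ± 0.074, SE; edgeR adjusted p = 4.78e-05). Fads3, Fads2 and Fads1 are successive protein-coding genes on chromosome 19 in the RefSeq annotation. Fads3, which is not among the 32, averaged 1.32 ± 0.64 CPM in budesonide and 1.84 ± 1.08 CPM in untreated libraries (SD, n = 3 each), too low to compare closely (log2 fold change -0.43 ± 0.46, SE; edgeR adjusted p = 0.549).

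Of the elongases, Elovl6, which extends palmitate to stearate, had 182.0, 168.4 and 158.5 CPM in the budesonide libraries, against 148.5, 147.9 and 146.7 CPM in the untreated libraries. Every budesonide library was higher, and Elovl6 rose 1.15-fold (log2 fold change 0.20 ± 0.063, SE; edgeR adjusted p = 0.0113). The call for Elovl6 was lost in 3 of 14 alternatives, with an adjusted p (edgeR unless named) of 0.117 with no scaling factors, 0.0914 with no filter on low counts and 0.144 without budesonide replicate 1. Elovl5, which lengthens polyunsaturated fatty acids, averaged 34.9 ± 2.51 CPM in budesonide and 31.3 ± 2.76 CPM in untreated libraries (SD, n = 3 each; log2 fold change 0.16 ± 0.10, SE), and Elovl1, which makes very long saturated chains, 3.51 ± 0.539 CPM in budesonide and 4.02 ± 0.695 CPM in untreated libraries (log2 fold change -0.19 ± 0.28, SE), and neither passed. Among the 5 elongases and desaturases 3 rose and 0 fell, and DESeq2 gave 3 and 0 as well. In edgeR that is 60% called, beside 28.7% of all genes tested and 46.7% of those at or above 30 CPM, where all but Elovl1 lay. Per kilobase of transcript Elovl6 and Fads2 stood above Fads1 in both groups, at 28.5 and 29.4 against 19.9 CPM per kb with budesonide and 24.8 and 22.5 against 12.6 CPM per kb without.

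**Figure D3:**
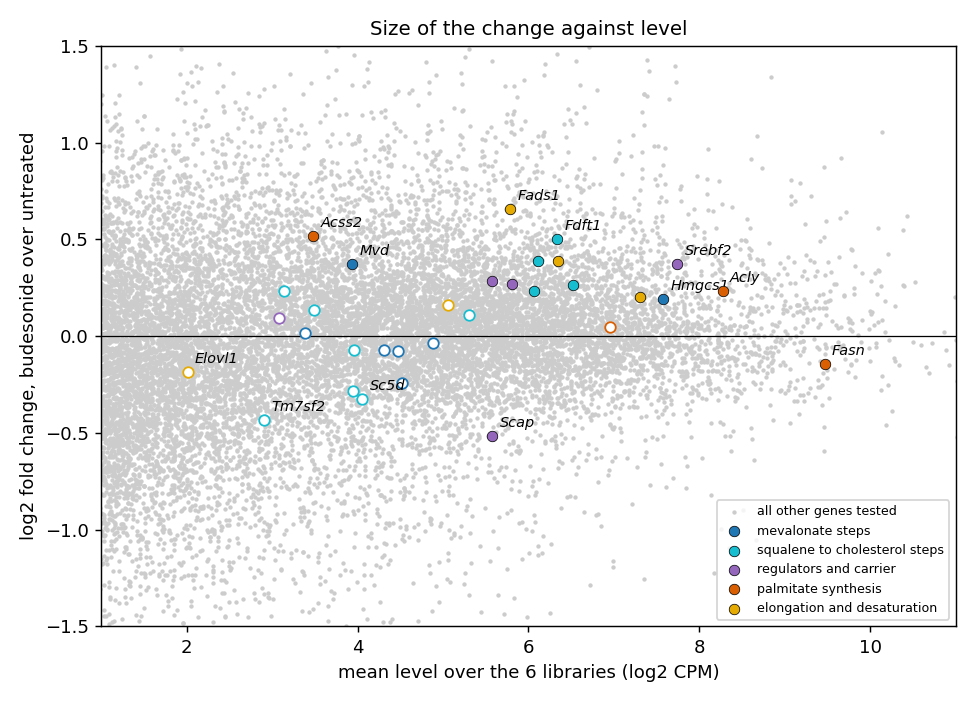
Log2 fold change, budesonide over untreated, against the mean level over the 6 libraries in log2 CPM, for the 32 genes in colour and all other tested genes in grey; filled points passed the test, open points did not, and genes outside the axes are not drawn. The filled points are mostly at the higher levels, and the 32 genes sit inside the spread of the grey points.

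Ratios of a pair of genes within a library do not depend on how libraries are scaled, and show which members changed unequally. The pairs were chosen after their values were seen and are given without a test. The ratio of Srebf2 to Scap CPM was 6.33, 6.18 and 5.84 in the budesonide libraries, against 2.93, 3.47 and 3.60 in the untreated libraries, with no overlap. Cyp51 stood to Sc5d at 5.35, 4.91 and 6.08 in the budesonide libraries, against 3.14, 3.23 and 3.43 in the untreated libraries. Fads1 stood to Fasn at 0.111, 0.101 and 0.0937 in the budesonide libraries, against 0.0605, 0.0581 and 0.0579 in the untreated libraries. In these 3 pairs the first gene of the pair was higher relative to the second in every budesonide library. Acly stood to Fasn at 0.496, 0.514 and 0.486 in the budesonide libraries, against 0.386, 0.372 and 0.393 in the untreated libraries. Srebf2 to Insig1 was 3.93, 3.75 and 4.29 in the budesonide libraries, against 3.95, 3.72 and 3.46 in the untreated libraries, and there the groups overlapped.

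**Figure D4:**
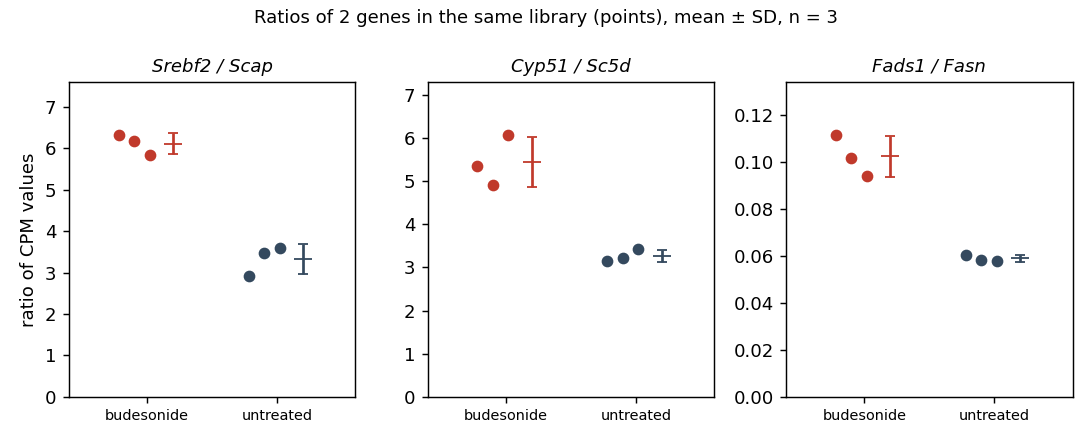
Ratio of the CPM values of 2 genes in the same library for Srebf2 over Scap, Cyp51 over Sc5d and Fads1 over Fasn, with budesonide libraries to the left of untreated libraries and bars for the mean ± SD (n = 3). In each panel the 3 budesonide points lie above the 3 untreated points.

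Other genes of these pathways, listed by function, gave a mixed picture. Of 20 further sterol genes tested (of 22 listed) 2 rose and 4 fell, beside 28.7% called among all genes. The cholesterol carrier of the lysosome Npc2 rose 1.54-fold (edgeR adjusted p = 1.10e-08), with 81.7, 76.8 and 75.7 CPM in the budesonide libraries, against 52.6, 46.3 and 53.3 CPM in the untreated libraries. Srebf1, which encodes SREBP-1, rose 1.34-fold (log2 fold change 0.42 ± 0.073, SE; edgeR adjusted p = 9.86e-06). Soat1, which esterifies cholesterol for storage, fell 1.54-fold (edgeR adjusted p = 1.70e-10), with 111.4, 99.2 and 100.4 CPM in the budesonide libraries, against 163.6, 148.5 and 169.4 CPM in the untreated libraries.

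Of 26 further fatty acid genes tested (of 28 listed) 9 rose and 6 fell, a share of 57.7% called. The stearoyl-CoA desaturase Scd1, which makes oleic acid, had 219.2, 214.0 and 206.8 CPM in the budesonide libraries, against 97.4, 98.6 and 115.5 CPM in the untreated libraries. With a 2.06-fold rise Scd1 changed more than any of the 32 genes (log2 fold change 1.04 ± 0.066, SE, edgeR adjusted p = 1.34e-17). Its more abundant paralog Scd2 did not pass (log2 fold change 0.064 ± 0.054, SE, edgeR adjusted p = 0.421). Per kilobase of transcript, Scd2 stood at 127.4 CPM per kb with budesonide and 122.0 CPM per kb without. Scd1 stood at 44.2 CPM per kb with budesonide and 21.5 CPM per kb without. The acyl-CoA synthetases, which activate fatty acids, differed among themselves: Acsl4 rose 1.37-fold (log2 fold change 0.46 ± 0.072, SE), and Acsl3 and Acsl5 fell 1.74-fold and 2.05-fold (log2 fold changes -0.80 ± 0.078 and -1.03 ± 0.14, SE).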

How the data were processed

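Polyadenylated RNA of 3 budesonide-treated and 3 untreated samples was sequenced with a strand-specific kit, per the labels' protocols. Build GRCm39, STAR 2.7.5c, featureCounts 2.0, cutadapt 2.5, DESeq2 and bcl2fastq are listed in the submitters' processing notes; annotation, parameters and strand setting were not found there. The authors deposited raw counts per gene symbol, and a table of normalized signal that was checked to be those counts over 1 DESeq2 size factor per library (within 0.033 reads). Samples were grouped by their titles.

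The counts were tested with edgeR 4.0.16 in R 4.3.3 over all genes: TMM factors, the filterByExpr filter with a minimum count of 10 and total of 15, a robust quasi-likelihood fit of group alone, and p-values adjusted by Benjamini-Hochberg with a threshold of 0.05. The common coefficient of variation was 5.73%, and 3 reads in a library equal 0.401 to 0.529 CPM. Standard errors come from the F statistic, and group means with SDs from TMM-scaled CPM of 3 libraries. Pairs of libraries of a group differed by a chi-square of 1.43 to 3.14 per gene, more than counting noise alone gives, so none was counted as the same library deposited again. Lengths are of the longest APPRIS principal transcript in GENCODE M21; promoters are from RefSeq. Overlaps of exons were read from GENCODE M21 (GRCm38), which may differ from the annotation used for counting.

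The fit was tested on simulated data with known changes. It recovered 17 of 50 planted 1.25-fold changes, 37 of 50 planted 1.5-fold changes and 50 of 50 planted 2-fold changes, with 14 false calls. Changes near 1.26-fold, the median of the called members, can thus be missed. A member that did not pass may still have changed by that much. Alternatives were DESeq2 1.42.0, RLE, upper quartile and no scaling, no filter, a filter at 1 CPM in 3 libraries, the replicate number as a block, limma 3.58.1 on log2 of the deposited signal plus 1, each library left out, and adjusted p under 0.01. The genes and lists were chosen with earlier results of these data known. By rule, every one of the 32 is named with its fold change, called members, regulators and the anchors Hmgcs1, Sqle, Cyp51, Lss, Acaca and Fasn with library values, and up to 2 risen and 2 fallen genes of the other lists by smallest adjusted p at a mean of at least 1 CPM; not every gene so chosen is reported here. Sc5d, Idi1, Msmo1, Elovl1, Elovl5, Fads3 and Scd2 were given levels, and the overlapping genes were named, after their values were seen.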

Additional observations from a re-analysis of the deposited data

How the results depend on the processing

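Of the 16 called members, 7 kept their call and direction in all 14 alternative fits (Fdft1, Cyp51, Srebf2, Scap, Acly, Fads1 and Fads2), and none of the 16 changed sign. Scaling moved several counts: with library totals and no scaling factors the share of higher genes among all calls was 38.6%, against 52.9% as reported, and the median of all genes shifted by -0.078 on the log2 scale. Higher sterol enzymes then numbered 3, as with upper quartile scaling (3), no filter (3) and an adjusted p under 0.01 (3), against 6 as reported. Lower sterol enzymes numbered 4 (Idi1, Tm7sf2, Hsd17b7 and Sc5d) with no scaling factors and 1 (Sc5d) with upper quartile scaling. Higher fatty acid enzymes numbered 3 with no scaling factors and 3 at an adjusted p under 0.01, against 5. The call of Fasn as lower was absent (0) in DESeq2, with RLE size factors, with the filter at 1 CPM, in limma and at an adjusted p under 0.01. Regulators and carriers gave 1 higher with no scaling factors, against 3. Further sterol genes gave 2 lower in DESeq2, in limma and at an adjusted p under 0.01, against 4.

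The sterol median was 0.010 with upper quartile factors and -0.016 without any, against 0.063, and the fatty acid median 0.15 and 0.12, against 0.20. Leaving out each library in turn gave 2 to 6 higher and 0 to 1 lower sterol enzymes, 4 to 5 and 0 to 1 fatty acid enzymes, 2 to 3 and 1 to 1 regulators, 2 to 3 and 2 to 4 further sterol genes, and medians of -0.0099 to 0.12 (sterol) and 0.15 to 0.22 (fatty acid); the lowest sterol count and median came without untreated replicate 2. The sign of genes near 0 turned: Fdps was -0.037 with upper quartile factors, -0.063 without any and -0.011 with no filter, Acaca -0.0072 and -0.033 with the first 2, and leaving out a library gave Acat2 -0.082 to 0.059, Pmvk -0.29 to 0.083, Fdps -0.13 to 0.15 and Insig2 -0.022 to 0.18. The cause of these shifts was not tested. Same-numbered libraries correlated at 0.040, 0.059 and -0.018, and differently numbered ones at -0.070 to 0.031. These values are small and include genes with few reads, so they do not decide whether the numbers pair the libraries. With the replicate number as a block the fit called 6 higher sterol and 5 higher fatty acid enzymes, 16 of the 32 in all. Members below 30 CPM had larger standard errors.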

Other observations

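Among the 32 genes the largest spread between budesonide libraries was in Pmvk, and the largest between untreated libraries was in Ebp. Both are named because they were the extremes. Pmvk had 173, 106 and 96 reads in the budesonide libraries, and Ebp 75, 41 and 44 reads in the untreated libraries. The part of counting noise in these spreads was not tested. Pmvk varied by 23.9% (coefficient of variation, n = 3) among budesonide libraries, with 24.4, 15.6 and 17.6 CPM, and by 2.22% among untreated libraries, with 20.4, 20.7 and 19.8 CPM. Ebp varied the other way, by 13.3% among budesonide libraries, with 10.7, 8.24 and 9.19 CPM, and by 37.3% among untreated libraries, with 11.4, 5.76 and 6.91 CPM. Neither gene passed the test.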
